A study of Mus musculus with 2 samples.

Results

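The synaptic vesicle release machinery was taken as 74 genes of the 20722 autosomal protein-coding genes with an annotated start site, out of 21853 such genes in all. Genes were chosen by symbol alone, with no measured value: synaptotagmins, syntaxins, syntaxin-binding proteins, vesicle-associated membrane proteins, SNAP proteins, complexins, synapsins, Rab3 proteins, Sv2 proteins, Unc13 and Rims proteins, and Doc2 proteins. The X-linked synapsin gene Syn1 fell outside the autosomal rule. The clathrin adaptor gene Snap91 entered through its symbol and is described apart.

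Neurotransmitter release depends on SNARE proteins, in which a vesicle protein (a Vamp) pairs with target membrane proteins (a syntaxin and a SNAP protein) and draws the membranes together. SM proteins hold and guide syntaxins, Unc13 and Rims proteins prime docked vesicles at the active zone, complexins clamp and assist the assembled SNAREs, and synaptotagmins couple fusion to calcium. Hippocampal neurons use this set for fast transmission, while close relatives of the same proteins serve membrane traffic between compartments in every cell.

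The assay was DNase-seq, which sequences the ends left where DNase I cuts DNA that nucleosomes leave exposed. Both samples were hippocampus (the labels name a layer without saying which) of B6CASTF1/J mice, a first-generation cross, male and aged 2 months, with no treatment. They form 1 group of 2 biological replicates from separate biosamples that share a donor entry. No label says that they came from separate animals, so the spread between them may be technical.

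Replicate 1 held 132685 peaks and 255536 footprints, and replicate 2 held 59880 peaks and 111355 footprints. A footprint is a short protected stretch inside open chromatin. Heights are the authors' signal values per peak. The sources used here do not give their scaling. Both alleles of the cross were pooled on 1 reference. Heights below 500 steps were whole multiples, within 0.02 steps, of a step of about 0.00535 in replicate 1 and 0.0108 in replicate 2, and taller peaks were not tested. Heights are given for replicate 1 first, then replicate 2. A promoter was called open where overlapping peaks of both replicates lay within 500 bp of a start site. Among the tissue's markers, excitatory neuron genes Camk2a, Neurod2, Neurod6 and Zbtb18, the dentate gene C1ql2 and the CA field genes Wfs1 and Pcp4 were open. Prox1 and Slc17a7 had a peak in replicate 1 only, as did the interneuron gene Slc32a1, the astrocyte genes Aqp4 and Aldh1l1, the oligodendrocyte gene Mog and the microglial genes Cx3cr1 and Csf1r. The interneuron gene Gad1, the astrocyte gene Slc1a2, the oligodendrocyte gene Mbp and the neuroendocrine gene Chga were open, and the Gad2 peaks of the replicates did not overlap. Lhx6, Gfap, Mobp, C1qa, the endothelial genes Cldn5, Pecam1 and Cdh5, and Alb and Acta1 of other tissues had no peak. In such bulk tissue, fewer cells of a type and less accessibility per cell cannot be told apart, and a promoter without a peak may be open in few cells.

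The 8 stretches of mm10 chosen as examples are shown first. They are drawn from the GRCm38.p6 reference, and capitals mark bases under footprints found in both replicates. The promoter stretches belong to Stxbp3, which had one of the tallest promoter peaks among the 74 genes, at chr3:108840541-108840740 (minus strand), and to Unc13a, a vesicle priming gene, at chr8:71671758-71671860 (minus strand). Each is written 5′ to 3′ in the direction of the gene.
Stxbp3 promoter: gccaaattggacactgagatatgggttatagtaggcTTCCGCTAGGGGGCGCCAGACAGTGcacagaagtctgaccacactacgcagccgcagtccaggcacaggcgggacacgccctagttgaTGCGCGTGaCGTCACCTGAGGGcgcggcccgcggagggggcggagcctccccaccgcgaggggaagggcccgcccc
Unc13a promoter: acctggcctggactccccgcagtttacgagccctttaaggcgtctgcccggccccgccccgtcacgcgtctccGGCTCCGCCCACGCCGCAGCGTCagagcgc
The Stxbp3 stretch holds the core of the CTCF site (AGGGGGCGC) and the CRE (TGACGTCA), the element bound by CREB family factors, both overlapping footprints. The Unc13a stretch holds the EGR site (GCGTGGGCG) on the opposite strand, also under a footprint. Such matches are descriptions of letters and do not show which factor was bound.

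Sites of the NRF1 type (GCGCATGCG) overlapped footprints in the promoters of Snap23, at chr2:120567663-120567692 (plus strand), Stx12, at chr4:132884505-132884534 (minus strand), and Stxbp5, at chr10:9901220-9901249 (minus strand). The 30 bases around each are shown. The 3 genes, of separate families, were chosen for holding this match, so sharing its letters was fixed in advance.
Snap23 site: agtcctcCGGGCGCATGCgcgcgagggagc
Stx12 site: ggcggaGCGCGCGCATGCGCACCGCGATGg
Stxbp5 site: GGGCGGCGGCGCGCATGCGCAccgggcagc
The Stx12 and Stxbp5 stretches share an unbroken run of 16 bases, GCGCGCATGCGCACCG, and all 3 share the run of 10 bases GCGCATGCGC. Both runs contain the letters searched for.

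Distal sites, over 2500 bp from every protein-coding start site, are represented by 3 strong ones, all written on the plus strand. The Syt1 site lay in an intron 31.2 kb downstream of the first start, at chr10:108979721-108979900. The Stx1a site lay 7.8 kb upstream of that gene, at chr5:135015581-135015780, where the nearest start belonged to Abhd11. The Syt3 site lay beyond the end of the gene and spanned 440 bp, of which the 162 bases at chr7:44405839-44406000 are shown.
Syt1 intron: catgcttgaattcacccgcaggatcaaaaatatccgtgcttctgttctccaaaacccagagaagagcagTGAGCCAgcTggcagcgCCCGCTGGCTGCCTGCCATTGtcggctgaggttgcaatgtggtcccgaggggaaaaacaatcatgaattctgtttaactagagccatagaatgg
Stx1a upstream: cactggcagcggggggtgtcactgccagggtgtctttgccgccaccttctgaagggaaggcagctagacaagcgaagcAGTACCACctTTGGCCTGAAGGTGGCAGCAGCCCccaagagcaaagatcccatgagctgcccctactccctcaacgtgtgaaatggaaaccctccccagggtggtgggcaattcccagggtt
Syt3 downstream: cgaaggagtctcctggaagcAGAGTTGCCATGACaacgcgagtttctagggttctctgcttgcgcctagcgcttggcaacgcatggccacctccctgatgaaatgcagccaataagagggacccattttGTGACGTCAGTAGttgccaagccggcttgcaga
In the Syt3 site, footprints of both replicates covered a match to the RFX site (GTTGCCATG) and one to the CRE (TGACGTCA).

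Most of the release machinery had an open promoter, and the median height of these promoters was below that of all open genes. Of the 74 genes, 62 were open in both replicates (83.8%), where 58.2% of all autosomal genes were. A promoter peak was present at 65 of the genes in replicate 1 (87.8%, against 64.6% of all genes) and at 63 in replicate 2 (85.1%, against 59.6%). The median heights of the 62 open promoters were 3.54 and 2.18, below the medians of 4.16 and 2.51 over the 12064 open genes. By mean height, 36 of the 62 lay under the median of all open genes. At or above the 90th percentile were 3 genes, Snap29, Vamp3 and Stxbp3, and under the 10th were 8, namely Rims3, Unc13c, Syt2, Syt9, Stx3, Vamp8, Rab3b and Sv2c.

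**Figure D1:**
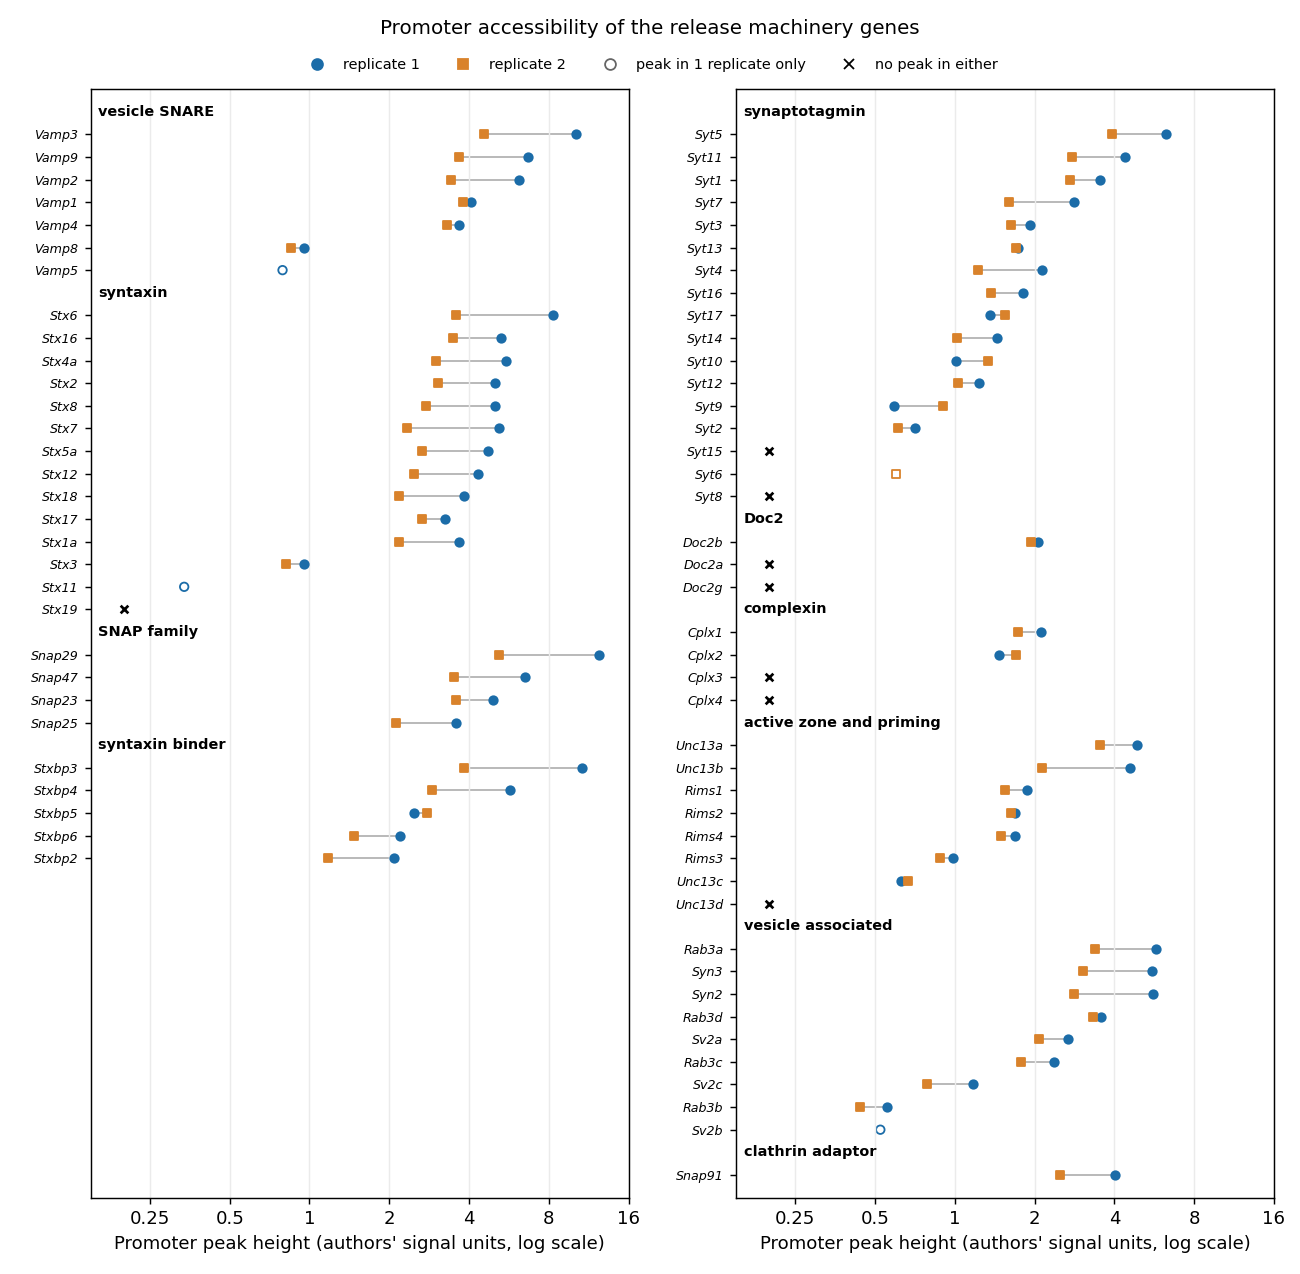
Promoter peak height of 72 of the 74 genes, in the authors' signal units on a log scale, by functional group. Circles are replicate 1 and squares replicate 2, joined by a line; open symbols mark a peak in 1 replicate only and crosses, placed at the left edge with no value, mark no peak. Snap29, at 12.4 and 5.17, is the tallest promoter and the synaptotagmins, complexins and Rims genes lie mostly to the left of the syntaxins and SNAP genes.

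Vesicle SNARE promoters were open at 6 of 7 genes. Vamp3, which serves recycling endosomes in most cells, was tallest with heights of 10.1 and 4.56. Vamp9 stood at 6.66 and 3.66. Vamp2, the main vesicle SNARE of forebrain synapses, had 6.17 and 3.43. Its relative Vamp1, which predominates at many synapses of brainstem and spinal cord, had 4.08 and 3.81, so Vamp2 was the higher in replicate 1 and Vamp1 in replicate 2. Vamp4, of the trans-Golgi network and endosomes, had 3.68 and 3.30. Vamp8, an endosomal and secretory granule SNARE, was lowest of the open genes at 0.957 and 0.850. Vamp5 had a peak in replicate 1 only, with a height of 0.791.

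Syntaxin promoters were open at 13 of 15 genes, and Stx6 and Stx16, syntaxins of internal membranes, were tallest by mean height. Stx6, of the trans-Golgi network, reached 8.29 and 3.57. Stx16, which works with it there, reached 5.27 and 3.49. Stx4a, a plasma membrane syntaxin found in many cell types, had 5.51 and 2.99, above Stx16 in replicate 1. Stx1a, a syntaxin of synaptic exocytosis, ranked lower at 3.67 and 2.18. Stx3, a syntaxin of ribbon synapses and apical membranes, was lowest at 0.957 and 0.818 (mean 0.887, or 1.39 within 2000 bp). Stx11, a syntaxin of immune cells, had a peak in replicate 1 only (0.337), and Stx19 had none. The Stx8 start lay within 1000 bp of the start of Cfap52, and that of Stx5a near 1700092M07Rik, so these peaks cannot be assigned to 1 gene.

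All 4 genes of the SNAP family were open. Snap29, a SNAP protein of many membranes, had the tallest promoter of the whole set, at 12.4 and 5.17, with the start of Pi4ka within 1000 bp. Snap47 had 6.51 and 3.51 beside the start of Jmjd4. Snap23, the ubiquitous relative of the synaptic protein, had 4.91 and 3.57. Snap25, the SNAP protein of neuronal exocytosis, was lowest of the family with 3.56 and 2.12. The Snap25 promoter held 1 of the 2 CRE matches in promoter peaks of the set, overlapping footprints of both replicates. The other was the Stxbp3 match shown above.

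All 6 syntaxin-binding genes were open. Stxbp3, an SM protein that works with Stx4a in many tissues, stood at 10.7 and 3.82. Stxbp4 had 5.73 and 2.90 with the start of Cox11 within 1000 bp, but its mean height fell from 4.32 to 0.769 where peaks had to overlap reciprocally by 50%. Stxbp5 (tomosyn), which competes for syntaxin, had 2.49 and 2.76 and was among the few genes higher in replicate 2. Stxbp6 (amisyn) had 2.19 and 1.47 (mean 1.83, or 1.07 under that overlap), and Stxbp2, the SM protein of immune and epithelial secretion, was lowest at 2.09 and 1.17.

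Synaptotagmin promoters were open at 14 of 17 genes, with a median mean height of 1.64. Syt5 was tallest at 6.27 and 3.90. At its most upstream start alone its mean height was 1.52, below that of Syt1 (3.12). Syt11, a member without calcium binding, had 4.39 and 2.78 at an internal start, and it was not open at its most upstream start. Among the calcium sensors of fast release, Syt1 had 3.52 and 2.72, Syt9 had 0.588 and 0.904, and Syt2 had 0.711 and 0.613. Syt1 was above both in each replicate, with no overlap. Syt7, a slow sensor linked to facilitation and asynchronous release, had 2.82 and 1.60. Syt6 had a peak in replicate 2 only (0.602), and Syt8 and Syt15 had none in either replicate. The nearest shared peak lay 1148 bp from a Syt6 start and 708 bp from a Syt8 start, and both genes were open within 2000 bp. Of the Doc2 genes, Doc2b, a high-affinity calcium sensor of spontaneous and asynchronous release, was open at 2.06 and 1.94, while its close relative Doc2a and the more distant Doc2g had no peak.

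Complexin promoters were open at 2 of 4 genes. Cplx1 had 2.12 and 1.73, and Cplx2 had 1.47 and 1.70, so Cplx1 was higher in both replicates, narrowly so in replicate 2. Within 2000 bp of a start the order turned, with mean heights of 4.25 for Cplx2 and 1.92 for Cplx1. Cplx3 and Cplx4, complexins of retinal ribbon synapses, had no promoter peak. Each of those genes nevertheless had 1 distal site, the nearest shared peaks lying 3492 bp from a Cplx3 start and 4937 bp from the Cplx4 start.

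Active zone and priming genes were open at 7 of 8. Unc13a, the main priming factor of forebrain synapses, had 4.87 and 3.52. Unc13b, its relative at a subset of hippocampal synapses, had 4.58 and 2.13. Unc13c, best known from cerebellar granule cells, had 0.626 and 0.667, below both in each replicate. Unc13d, a priming factor of immune cells, had no peak within 500 bp, and the nearest shared peak lay 1660 bp away. Rims1 had 1.87 and 1.55. Rims2 had 1.69 and 1.64 at its most downstream start, and 1.34 and 1.27 near its first start. Rims4 had 1.69 and 1.495, and Rims3 had 0.989 and 0.882. By its taller promoter Rims2 was close to Rims1 and Rims4, and Rims3 was below all of these in both replicates. This order depended on the window, since within 200 bp the mean height of Rims1 was 1.03, from 0.652 and 1.41, and Rims4 was not open. Rims1 and Rims2 encode the long scaffolds of the active zone, whereas Rims3 and Rims4 encode short forms.

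Vesicle-associated genes were open at 8 of 9. Rab3a, the most abundant small GTPase on synaptic vesicles, had 5.72 and 3.37. The synapsin genes Syn3 and Syn2, whose products tether vesicles in the reserve pool, had 5.55 and 3.03, and 5.58 and 2.82. Rab3d, known from secretory granules outside the brain, had 3.55 and 3.33, Rab3c had 2.37 and 1.79, and Rab3b was lowest with 0.556 and 0.441. Among the vesicle glycoprotein genes, Sv2a had 2.67 and 2.08 and Sv2c had 1.18 and 0.785. Sv2b had a peak in replicate 1 only, at 0.524. The order Sv2a above Sv2c was the same in both replicates. Snap91, the endocytic adaptor that recovers vesicle membrane, had 4.01 and 2.50.

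The 12 genes not open in both replicates were Vamp5, Stx11, Stx19, Syt6, Syt8, Syt15, Doc2a, Doc2g, Cplx3, Cplx4, Unc13d and Sv2b. Several are best known outside the brain, such as Stx11 and Unc13d in immune cells and Cplx3 and Cplx4 in the retina. Sv2b and Doc2a are known from forebrain synapses. The deposited FDR lists hold only intervals below 0.05. The lowest FDR within 500 bp of a Sv2b start was 0.00165 in replicate 1. Stx11 reached 0.00344 and Vamp5 0.00197 in replicate 1, and Vamp5 also 0.0402 in replicate 2. Syt6 reached 0.0480 in replicate 1 and 0.0157 in replicate 2, and Cplx3 reached 0.0319 in replicate 1. At the other 7 genes no interval was listed in either replicate.

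Replicate 1 heights exceeded those of replicate 2 at most of the promoters. The median log2 ratio of replicate 2 over replicate 1 was -0.58 over the 62 genes and -0.72 over all open genes. Replicate 2 was higher at 6 of the 62 (9.68%, against 12.8% of all open genes), namely Syt9, Syt10, Cplx2, Syt17, Stxbp5 and Unc13c. The largest log2 ratios were those of Syt9 (0.62), Syt10 (0.40) and Cplx2 (0.21). The smallest belonged to the tall promoters of Stxbp3 (-1.48), Snap29 (-1.26) and Stx6 (-1.21).

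**Figure D2:**
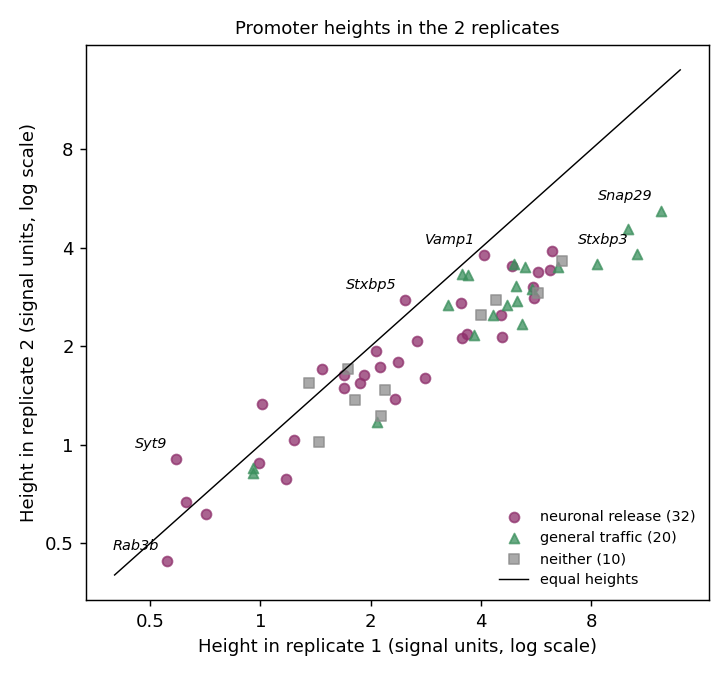
Promoter height in replicate 1 (horizontal) against replicate 2 (vertical), in the authors' signal units on log scales, for the 62 open genes; circles are neuronal release genes, triangles general traffic genes and squares genes in neither list, and the line marks equal heights. Points of tall promoters fall farther below the line, and Syt9, at 0.588 and 0.904, lies above it.

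Separate open promoters, with starts over 1000 bp apart, were found at 4 of the 74 genes (5.41%, against 4.02% of all genes). Rims2 had 3, with peaks of 1.34 and 1.27 near its first start, 0.487 and 0.409 at an internal start, and 1.69 and 1.64 at the most downstream one. Unc13b had 4.58 and 2.13 at 1 start and 1.53 and 1.25 at another. Syt17 had 1.79 and 1.03, and 1.36 and 1.55, so a different promoter was taller in each replicate. Stxbp4 had 0.850 and 0.688 at a start other than the one near Cox11.

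The genes were split by function into 37 of neuronal release (such as Syt1, Stx1a, Snap25, Vamp2, Unc13a and Rims1) and 22 of general membrane traffic (such as Stx6, Stx16, Vamp3, Snap23 and Stxbp3), with 15 in neither list. Promoters were open at 32 of 37 neuronal release genes (86.5%) and 20 of 22 general traffic genes (90.9%). The neuronal release promoters were lower, with median heights of 2.35 and 1.76 against 4.95 and 3.02. In neither list, 10 of 15 genes were open (66.7%). Their median heights, 2.16 and 1.62, were below those of neuronal release too. In mean height, 24 of the 32 neuronal release promoters lay under the median of all open genes, against 5 of the 20 general traffic promoters. The ranges overlapped, running from 0.499 (Rab3b) to 5.09 (Syt5, at the taller of its starts) and from 0.887 (Stx3) to 8.79 (Snap29). Leaving out the 4 general traffic promoters beside another gene's start gave that list a median of 3.62 over 16 genes, against 3.82 over 20 and 2.04 for neuronal release.

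Distal sites showed the opposite order. Within the gene and 10 kb on each side, 49 of the 74 genes (66.2%) had at least 1 distal shared peak, against 41.8% of all genes. Of the neuronal release genes 32 of 37 had one (86.5%), against 7 of 22 general traffic genes (31.8%). Genes in neither list lay between, with 10 of 15 (66.7%). The shares of neuronal release and general traffic came closer with replicate 1 peaks alone, at 91.9% and 77.3%. The same held with flanks of 50 kb, at 91.9% and 68.2%. They were 45.9% and 9.09% with the stricter peak lists.

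Gene length differed between the lists, with medians of 59.5 kb for neuronal release, 26.7 kb for general traffic and 17.6 kb for all genes. Among genes of up to 20 kb, 6 of 9 neuronal release genes and 1 of 7 general traffic genes had a distal site, against 27.2% of all genes. From 20 to 60 kb the counts were 9 of 11 and 4 of 12, against 46.7% of all genes. Above 60 kb they were 17 of 17 and 2 of 3, against 74.8%. Per 100 kb, the median number of distal sites was 1.52 in neuronal release genes and 0 in both general traffic genes and all genes. Over all 74 genes the mean density, 1.39, was the same to this precision as over all genes.

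**Figure D3:**
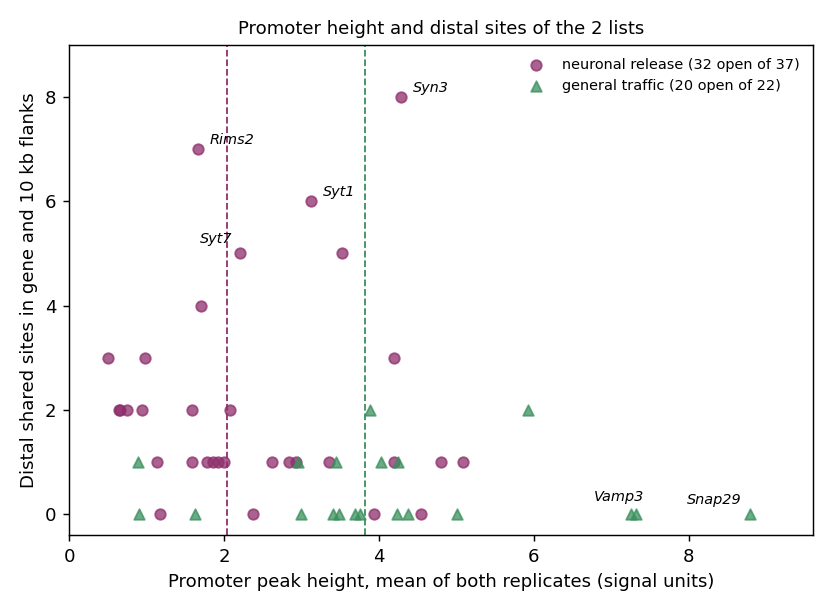
Mean promoter height in signal units (horizontal) and number of distal shared sites within the gene and 10 kb flanks (vertical) for open neuronal release genes (circles) and open general traffic genes (triangles); dashed lines mark the median heights, 2.04 and 3.82. Syn3 with 8 sites and Rims2 with 7 are highest, while Snap29 and Vamp3 have none.

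The 74 genes held 102 distal sites, counting 1 site that lies near both of a pair of genes under each. Of these, 79 lay in introns and 23 in flanks. A start of the same gene was the nearest protein-coding start for 72 (70.6%), and a neighbour's start was nearest for the rest. The number of sites differed between the libraries, with 392 from replicate 1 peaks alone and 129 from replicate 2 peaks alone. Their median mean height was 1.29 and median width 140 bp, against 1.09 and 148 bp for all distal shared peaks.

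Syn3 had the most, with 8 intronic sites, the strongest 34.9 kb into the gene at 4.24 and 2.12. The Timp3 gene lies within Syn3, and for 5 of the 8 sites the nearest start was that of Timp3. Rims2 had 7 sites, all nearest to a Rims2 start, including one of 3.10 and 1.29 at 137 kb and one of 3.0 and 1.43 at 164 kb. Syt1 had 6 sites, and the intronic one shown above, with 3.43 and 2.25, was the tallest. For 4 of them the nearest start was that of Gm5136. Syt7 had 5, with 3.05 and 2.23 at 13.8 kb. Rims1, Stxbp6 and Syt16 had 4 each. The Rims1 sites stayed at or below 1.01 in both replicates, whereas those of Syt16 reached 4.60 and 2.27 at 16.3 kb and 4.65 and 1.81 at 58.2 kb.

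**Figure D4:**
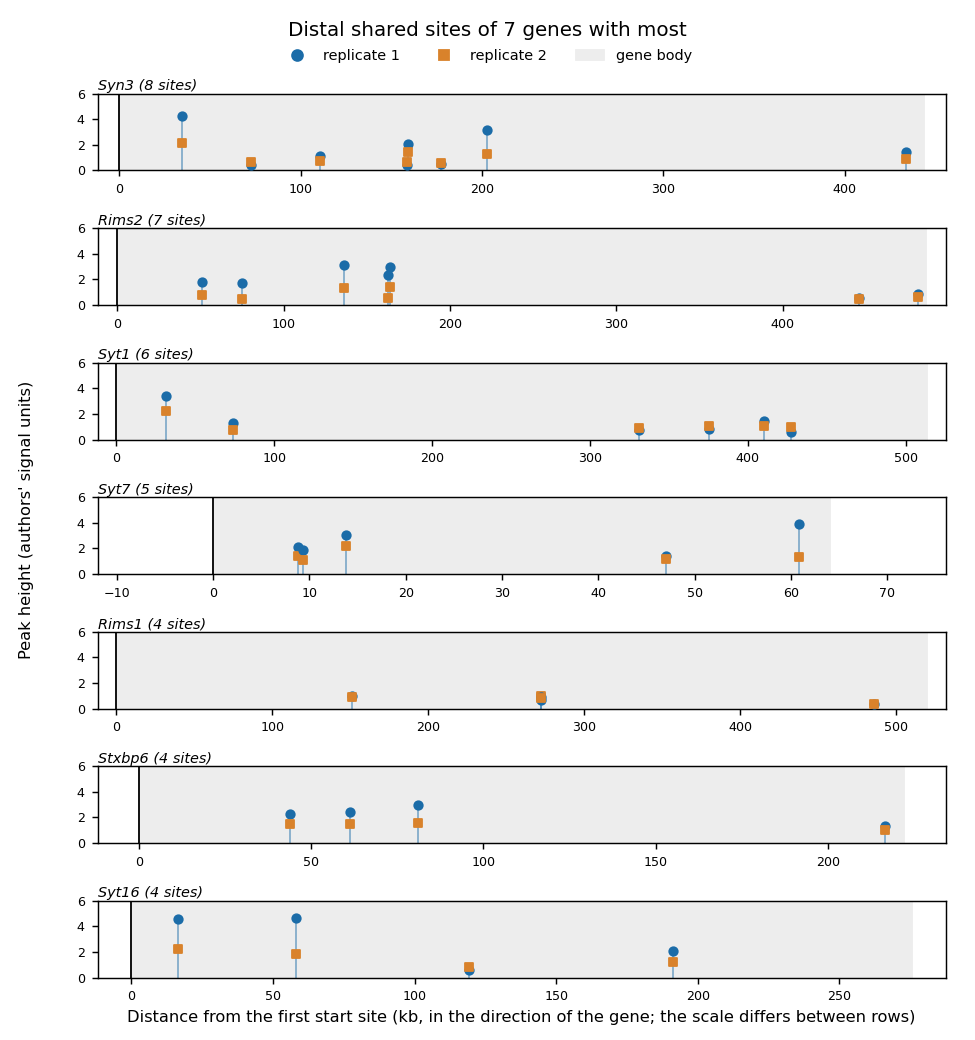
Distal shared sites of 7 of the genes with the most, by distance in kb from the first start in the direction of the gene (a separate scale in each row); circles and squares give the height in replicates 1 and 2 in the authors' signal units, and grey marks the gene body. The sites of Syt1 and Syn3 spread over most of the gene, and the tallest Syt1 site, at 3.43 and 2.25, lies 31.2 kb from its start.

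Some distal sites were taller than the gene's own promoter. The site 8.89 kb upstream of Rab3b had 6.31 and 1.06, while the Rab3b promoter had 0.556 and 0.441, and the heights at the upstream site differed widely between the replicates. The Syt3 site shown above had 5.33 and 2.02, above its promoter at 1.91 and 1.64. The Stx1a site shown above had 4.19 and 2.07, near its promoter at 3.67 and 2.18. An intronic Unc13a site at 42.3 kb had 4.09 and 2.55, under its promoter in both replicates.

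Footprints of both replicates overlapped at 45 of the 62 open promoters (72.6%), against 82.1% of all open promoters. They did so at 22 of 32 open neuronal release promoters and 18 of 20 open general traffic promoters. The totals depended on the library, with 120 overlapping footprints against 326 in replicate 1 alone and 282 in replicate 2 alone. Syt7 had the most overlapping footprints, 9, from 11 in each replicate. Vamp3 had 6, and Stx6, Vamp2 and Rab3a had 5 each. Rab3a had 15 footprints in replicate 1 and 10 in replicate 2, and Vamp2 had 5 and 6.

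By their medians, the promoters of the set were GC-rich whether open or not, though single genes departed from this. Within 500 bp of the start, the median GC content was 61.3% at the 62 open genes and 59.0% at the 12 others, against 60.1% over all open and 47.8% over all closed genes. The CpG ratio (observed over expected) was 0.682 and 0.495, against 0.753 and 0.2003. Among the promoters without a shared peak, Unc13d had 63.1% GC, Syt6 had 60.9%, Cplx4 had 47.1% and Stx19 had 41.7%. Their CpG ratios were 0.314, 0.603, 0.461 and 0.162, in that order. The lowest GC content of an open promoter was 46.7%, at Syt4.

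Motif letters were searched on both strands in the RefSeq promoter windows (GRCm38.p6, 250 bases before to 50 after the start), which matched 56 of the 74 genes. The GC box (GGGCGG), which Sp family factors bind, was present in 44 of the 56 (78.6%), against 51.6% of all promoters, and in 83.0% of the open ones, against 70.8%. The CCAAT box (CCAAT) was in 20 (35.7%, against 41.7%). The TATA box (TATAAA) was in 4 (7.14%, against 14.4%), namely Rab3b, Stx2, Stx3 and Sv2b. The NRF1 site (GCGCATGCG) was in 3 (5.36%, against 2.76%), the genes shown above. Among open promoters the shares were nearer for the TATA box, at 6.38% against 7.96%. They were 6.38% against 4.29% for the NRF1 site and 38.3% against 43.2% for the CCAAT box. Unmatched genes included Cplx4, Doc2a, Doc2b, Rims2, Rims4, Snap25, Syn3, Syt12, Syt13, Syt17, Syt4, Syt5, Syt7, Unc13d, Vamp2 and Vamp3.

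A site was counted as covered where any base of it overlapped a footprint found in both replicates. Within the 95 promoter peaks of the set, 3 of 4 NRF1 sites were covered, the exception being that of Stx1a. Over all promoter peaks the share was 78.0%. Both EGR sites (GCGTGGGCG), in Unc13a and Vamp2, were covered, against 48.6% of all. Of 107 GC boxes 23 were covered (21.5%, against 22.1%). None of 24 CCAAT boxes was (against 8.98%). In distal sites, all 4 matches to the CTCF core (AGGGGGCGC), those near Cplx4, Rims2 and Syn3 among them, were covered, against 78.6% of all distal matches. The NEUROD type E-box (CAGATGG) occurred in 11 of 101 distinct distal sites (10.9%, against 13.4% of all). With counts this small, a few sites decide each share.

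All 27 autosomal genes of a list of pathway partners had an open promoter, against 58.2% of all autosomal genes. The median heights of the 27 were 3.96 and 2.38, against 4.16 and 2.51 over all open genes. Tallest were Ppfia3 (liprin-alpha, an active zone scaffold) at 8.79 and 5.07, Dnm1 (dynamin, which pinches off endocytic vesicles) at 8.05 and 4.44, and Napa (alpha-SNAP, which helps take SNARE complexes apart) at 8.04 and 3.84. Ppfia3 was above the active zone genes Rims1 and Rims2 in both replicates. Of the 27, 22 had a distal site (81.5%), against 41.8% of all genes. The 27 were long, with a median of 132 kb, and 74.8% of all genes above 60 kb had a distal site.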

How the data were processed

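DNase-seq of 2 hippocampus samples was used. For each sample the authors deposited 2 peak lists, a footprint list and an FDR file on mm10, per the labels. Peak heights, as deposited, are signal values, and the deposited FDR is a q-value (an adjusted p-value). The sources used here do not give the aligner or the peak and footprint callers. The longer peak list of each sample was used; footprints carried the constant 0.01 and were used by position.

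Peaks of both replicates overlapping by at least 1 bp were intersected to give shared peaks, which took from each replicate the tallest peak over them. Start sites came from protein-coding transcripts of GENCODE M21 (GRCm38, the assembly of mm10). Counting used Python 3.11.15, pandas 2.3.3 and pysam 0.24.0 and was checked on simulated data. With 1 group, no test was made. The genes, lists and motifs were chosen with earlier results of these data known.

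The named genes were those not open in both replicates, the 3 highest and the lowest of each functional group, the 8 with most distal sites, the 5 with most overlapping footprints, the 3 highest and 3 lowest replicate ratios, those with more than 1 open promoter, paralogue sets, and the 3 tallest pathway genes. Other genes named were chosen after their values were seen. For 2 of the 74 genes no individual results are reported here; both stay in the counts and medians.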

Additional observations from a re-analysis of the deposited data

How the results depend on the processing

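The number of genes with an open promoter was 62 (83.8%, against 58.2% of all autosomal genes). It ranged from 48 (64.9%, against 44.7%), with peaks overlapping reciprocally by 50%, to 65. It was 63 from replicate 2 alone (85.1%, against 59.6%) and 65 from replicate 1 alone (87.8%, against 64.6%). Under the FDR 0.001 lists it was 55 (74.3%, against 52.3%). The median promoter height, 2.94, ranged from 2.17 (without replicate 1) to 3.25, and the median of general traffic exceeded that of neuronal release by 1.78, with a range of 1.29 (without replicate 1) to 2.58 (without replicate 2). Distal sites depended on the peaks used. Their number, 102, was 205 with flanks of 50 kb, 37 with the FDR 0.001 lists and 66 with reciprocal overlap, and it was 129 without replicate 1 and 392 without replicate 2. The share of genes with a distal site was 54.7 percentage points higher in neuronal release than in general traffic, 23.7 with flanks of 50 kb, 54.7 without replicate 1 and 14.6 without replicate 2. Overlapping footprints numbered 120, and 64 with reciprocal overlap; replicates taken alone gave 282 without replicate 1 and 326 without replicate 2. Under the FDR 0.001 lists 7 genes lost their open call, namely Cplx2, Rab3b, Rims3, Stx3, Stxbp2, Syt12 and Syt2. With 50% reciprocal overlap 14 genes lost it, namely Rab3b, Rims1, Stx18, Stx3, Stx5a, Stxbp5, Sv2c, Syt10, Syt14, Syt2, Syt4, Unc13b, Vamp8 and Vamp9. Within 200 bp of a start Rims4, Syt12 and Vamp8 lost it. With the most upstream start alone Rab3c, Snap47, Syt11 and Syt2 lost it. With replicate 1 cut to its tallest peaks, for lists of equal length, 58 genes were open (78.4%, against 55.6%). Rab3b, Syt2, Syt9 and Unc13c lost the call there. Causes were not tested. No paired analysis was possible because the series holds 1 group, with no comparison between groups. Replicate 2, with fewer peaks, limits which weak sites could be shared, and the sequencing depth is unknown here.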
